A study of Homo sapiens with 6 samples.

Results

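The genes described here are 10 members of the Notch pathway, chosen by name: the ligand genes JAG1 and JAG2, the receptor genes NOTCH1, NOTCH2 and NOTCH3, the nuclear factor genes RBPJ and MAML1, and the target genes HES1, HES4 and HEY1. Each symbol matched 1 of the 37871 Ensembl genes in the count table, and all 10 were among the 19170 genes with enough counts to be tested. RNA came from T24 cells, an established line from a human bladder carcinoma. One group of 3 libraries received vehicle, and the other group of 3 libraries received lipopolysaccharide (LPS), a bacterial cell wall component sensed by TLR4, together with nigericin, an ionophore that lets potassium leave the cell and is used to trigger the NLRP3 inflammasome. The series concerns caspase-1 in epithelial cells, and the question put to these libraries is how Notch transcripts differ between the groups. The labels describe no group given either agent alone, so effects of LPS and of nigericin cannot be told apart, and no source used here gives dose or duration.

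Notch is a receptor read by direct contact between cells. A ligand of the Jagged or Delta-like family on one cell binds a Notch receptor on its neighbour, ADAM proteases and then gamma-secretase cut the receptor, and the freed intracellular part enters the nucleus. There it joins the DNA-binding protein RBPJ and a Mastermind coactivator such as MAML1 and switches on genes of the HES and HEY families, which encode basic helix-loop-helix repressors. In the urothelium, the lining of the bladder, the pathway is known for its part in differentiation, and in bladder carcinoma both loss and gain of its components have been described.

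After LPS plus nigericin the ligand gene JAG1 and the receptor genes NOTCH1 and NOTCH2 rose, while the target genes HES1 and HES4 fell. HES1 fell 9.17-fold, from 47.7 ± 10.6 to 5.20 ± 0.530 CPM, and HES4 fell 2.48-fold, from 56.2 ± 16.3 to 22.7 ± 4.80 CPM (mean ± SD, n = 3 libraries). NOTCH2 rose 3.00-fold, JAG1 2.08-fold and NOTCH1 1.59-fold. RBPJ also passed the threshold as higher, though a correction described below turned its direction. NOTCH3 passed it from very few counts, having entered the test only through the treated group. JAG2, MAML1 and HEY1 did not pass. CPM are counts scaled to 1000000 per library, and the threshold is a Benjamini-Hochberg adjusted p of 0.05 from edgeR's quasi-likelihood test over all 19170 tested genes. In all, 5 members passed as higher, RBPJ and NOTCH3 among them, and 2 as lower, 70.0% of the 10. This stands against 55.3% of all tested genes, 28.9% as higher and 26.4% as lower, so the number of members past the threshold is not by itself particular to them. The median log2 fold change of the members was 0.40 against 0.00 for all tested genes.

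The promoters of HES1 and HES4, the 2 members that fell, are shown because RBPJ is known to act on HES genes through sites of this kind. The sequences are those of RefSeq on GRCh38.p14, upstream of the RefSeq start and in the direction of transcription. Capitals mark each match on either strand to TGGGAA, the core of the motif bound by RBPJ. HES1 is shown for chr3:194135898-194136147 on the plus strand, the 250 bases before its start. HES4 is shown for chr1:1000148-1000347 on the minus strand, 250 to 51 bases before its RefSeq start. The HES4 model of GENCODE 29 begins further upstream, at base 1000172, so the last 25 bases shown lie inside that model.
HES1: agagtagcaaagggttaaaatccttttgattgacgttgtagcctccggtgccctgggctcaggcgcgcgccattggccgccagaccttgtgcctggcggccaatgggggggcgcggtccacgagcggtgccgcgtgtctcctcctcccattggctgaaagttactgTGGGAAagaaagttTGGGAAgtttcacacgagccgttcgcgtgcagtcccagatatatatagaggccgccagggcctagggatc
HES4: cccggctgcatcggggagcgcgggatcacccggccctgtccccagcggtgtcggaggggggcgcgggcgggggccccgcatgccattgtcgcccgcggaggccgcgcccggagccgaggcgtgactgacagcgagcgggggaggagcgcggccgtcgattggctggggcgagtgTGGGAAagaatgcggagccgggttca

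HES1 held 2 matches, 84 to 79 and 70 to 65 bases before the start, and HES4 held 1 match, 76 to 71 bases before the RefSeq start. By GENCODE 29 the HES4 match lies across the start of the gene, with 5 of its 6 bases inside the transcribed model. Both promoters held the run tgTGGGAAagaa, which begins 86 bases before the HES1 start and 78 bases before the HES4 start. That run is the longest one shared by the 2 sequences shown and was picked for that reason. It was found in 6 of 35116 RefSeq promoters, those of HES1 and HES4 among them. At least 1 match to TGGGAA was present in 20.8% of the 35116 promoters and at least 2 in 2.90%. HES1 also held 3 matches to the N box CACNAG and 4 to the class C E box CACGNG, motifs that HES proteins are known to bind. The motifs overlap, and 2 of these matches, at 132 to 127 and 58 to 53 bases, were counted under both. At least 1 match to the N box was present in 32.0% of all promoters and at least 2 in 6.32%. For the class C E box these shares were 26.7% and 6.24%. HES4 held no match to the N box or the class C E box in its 250 bases. Of the 10 members, 9 matched the promoter table. Apart from HES1 and HES4, only RBPJ held a match to TGGGAA, 2 of them at 1 of its 5 annotated starts. These matches describe letters in a window and carry no measure of binding.

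Some properties of all libraries bear on these values. Library totals ran from 66180407 to 89152224 counts, and for the abundant members the spread between libraries, not counting error, sets the precision. Whether each library is a culture of its own is not stated in the labels. The p-values therefore rest on how these libraries vary, possibly for technical reasons alone, and a difference in preparation between the groups cannot be told apart from the treatment. Fold changes followed the GC content of the transcript across all genes. The median log2 fold change was 0.79 in the GC-poorest of 10 equal bins of tested genes (23.1% to 38.8% GC) and -0.82 in the GC-richest bin (61.6% to 83.9% GC). Values from a fit with offsets for GC content and transcript length in each library are therefore given beside the members. The offsets also take out whatever part of the response itself tracks GC content or length, and the part of this trend in the members' values was not tested beyond them.

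The label of an epithelial cell held in part. KRT7, KRT8 and KRT18, keratins of simple epithelium, had 3350, 2710 and 1540 CPM in vehicle. CDH1, which encodes E-cadherin, was at 0 counts in all vehicle libraries, and TP63 and KRT5, markers of basal urothelium, likewise. UPK1B and UPK3A were also at 0 counts in vehicle, and KRT20 held at most 4. KRT19, PPARG and GATA3 had 417, 83.5 and 18.3 CPM in vehicle, and EPCAM and UPK2 had 1.93 and 0.531 CPM. The summed level of 14 epithelial markers was 6640 to 9640 CPM in vehicle and 3560 to 4570 CPM after treatment. Of the 8 that could be tested, 6 passed as lower, against 26.4% of all tested genes. With the offsets 5 did, where 4983 of 18620 genes passed as lower. KRT8 and KRT18, both among the 6, share 525 exon bases on opposite strands. Whether counting took account of strand is stated in no source used here. Endothelial cells carry much Notch, and their 6 markers summed to 0.779 to 1.02 CPM in vehicle and 0.560 to 1.03 CPM after treatment, with KDR at 0 in every library. The 5 fibroblast markers summed to 5.11 to 5.87 CPM in vehicle and 4.23 to 4.53 CPM after treatment, with DCN and LUM at 0. COL1A1 made up most of it, at 4.29 CPM in vehicle and 3.35 CPM after treatment, and did not pass. COL3A1 passed as higher, with counts of 0, 0 and 1 in vehicle and 10, 19 and 13 after treatment. It entered the test only through the treated group, so that a difference was built into its selection. The 4 leukocyte markers analysed summed to 4.87 to 12.0 CPM in vehicle and 2.77 to 3.69 CPM after treatment, and PTPRC was at 0 counts in vehicle. Most of that sum was CD68, which shares 1789 exon bases on the same strand with another gene of 7244 to 12367 counts. LYZ passed as higher, from at most 0.157 CPM in vehicle to at most 0.801 CPM after treatment. With 4, 12 and 0 counts in vehicle, LYZ entered the test only through the treated group, so that a difference was built into its selection. In bulk RNA, fewer cells that make a transcript and less of it per cell cannot be told apart.

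The 2 Jagged ligands differed in level by more than an order of magnitude. JAG1 encodes the Jagged ligand most often found in epithelium. It had 52.3, 43.7 and 64.1 CPM in the vehicle libraries and 122, 97.1 and 114 CPM in the treated libraries. Every treated library was above every vehicle library. The log2 fold change was 1.05 (SE 0.164, edgeR adjusted p = 0.00126), and 0.75 with the GC and length offsets. JAG1 (ENSG00000101384) lies on the minus strand of chromosome 20 at 10637684 to 10673999 on GRCh38. It shares 79 exon bases with an antisense gene that held at most 10 counts in any library.

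JAG2, a second Jagged ligand, had 1.45, 1.97 and 1.23 CPM in vehicle and 2.10, 1.40 and 1.89 CPM after treatment. The groups overlapped. Its log2 fold change was 0.22 with a 95% interval of -0.42 to 0.86 (edgeR adjusted p = 0.534), so a modest change either way is not excluded at this spread. With the offsets it was 0.71 (edgeR adjusted p = 0.0499), just past the threshold. JAG2 is GC-rich, at 64.0%, in the GC bin whose median was -0.82. Per kilobase of exon, JAG1 exceeded JAG2 by 4.58 ± 0.618 on the log2 scale in vehicle and by 5.42 ± 0.137 after treatment (n = 3 each). Every treated library lay above every vehicle library in this ratio, and the two-sided exact permutation p was 0.1, the smallest that 3 against 3 libraries allow. With the offsets taken out of the CPM, the ratio was 4.97 ± 0.380 in vehicle and 5.03 ± 0.263 after treatment, a difference of 0.0664 in place of 0.841. The groups then overlapped (two-sided exact permutation p = 1.0).

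**Figure D1:**
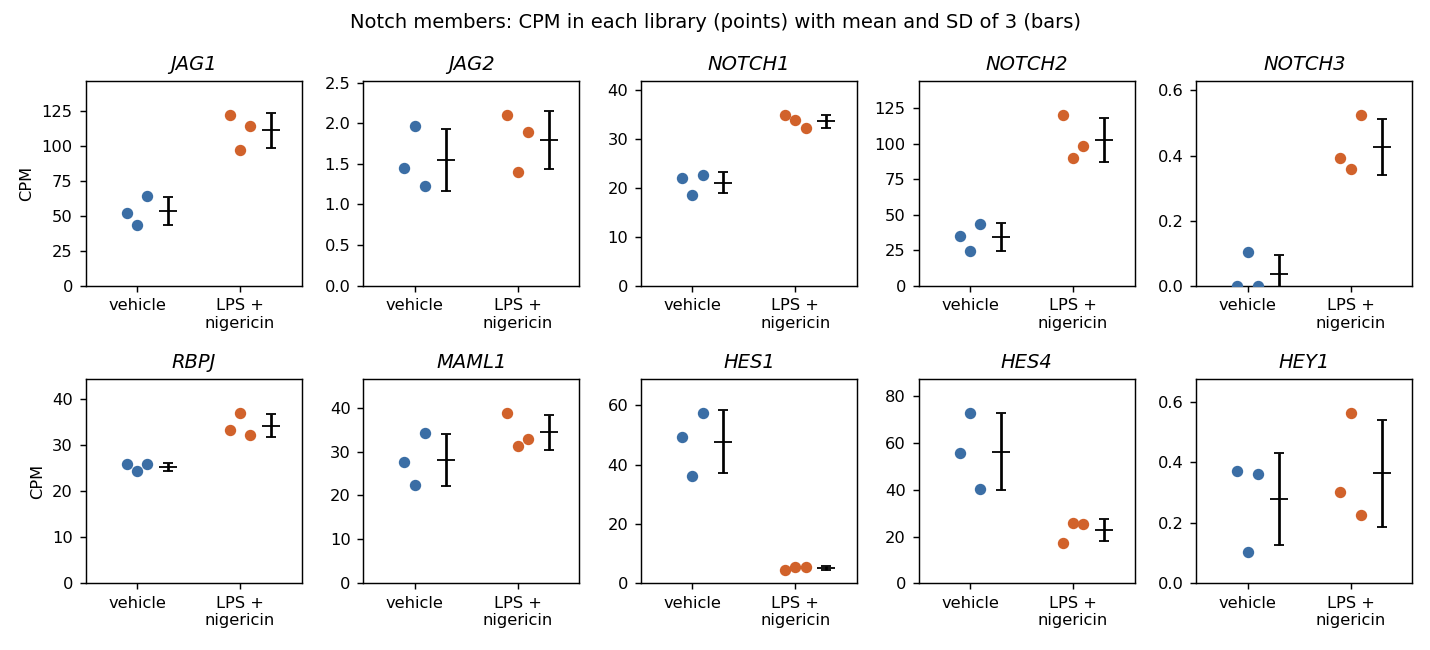
CPM (y axis, starting at 0 and scaled per gene) of the 10 members in each of 3 vehicle and 3 treated libraries (points), with mean and SD beside them. HES1 sits between 36.3 and 57.4 CPM in vehicle and between 4.59 and 5.56 CPM after treatment, and the JAG2, MAML1 and HEY1 groups overlap.

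Of the receptor genes, NOTCH2 rose the most among those with more than a few counts. NOTCH2 had 35.2, 24.2 and 43.3 CPM in the vehicle libraries and 120, 89.9 and 98.0 CPM in the treated libraries. The lowest treated library was more than double the highest vehicle library. The log2 fold change was 1.59 (SE 0.220, edgeR adjusted p = 7.71e-04), and 1.07 with the offsets.

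NOTCH2 (ENSG00000134250) lies on the minus strand of chromosome 1 at 119911553 to 120069626. Partial copies of it, the NOTCH2NL genes, are near-identical in sequence, and how reads were divided among them is stated in no source used here. The copies tested did not pass the threshold. NOTCH2NLA had a log2 fold change of -0.12, NOTCH2NLB of 0.32 and NOTCH2NLC of -0.75 (edgeR adjusted p = 0.588, 0.163 and 0.101). Their counts in vehicle library 1 were 2240, 436 and 782, beside 3209 for NOTCH2 itself.

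NOTCH1, the receptor whose cleaved form is the classical activator of HES1, had 22.0, 18.6 and 22.7 CPM in vehicle and 34.9, 33.9 and 32.2 CPM after treatment. The groups did not overlap. Its log2 fold change was 0.67 (SE 0.130, edgeR adjusted p = 0.00343), and 0.93 with the offsets. NOTCH1 (ENSG00000148400), on the minus strand of chromosome 9 at 136494433 to 136545786, is GC-rich at 62.9%. In its GC bin 7.36% of genes passed as higher and 56.1% as lower.

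NOTCH3, a receptor best known from vascular smooth muscle, was close to absent. Its raw counts were 0, 8 and 0 in the vehicle libraries and 26, 30 and 44 in the treated libraries, or at most 0.524 CPM. All treated libraries were above all vehicle libraries, but the gene entered the test only through the treated group, so that a difference was built into its selection. The log2 fold change was 3.64 with a wide 95% interval of 0.90 to 6.37 (edgeR adjusted p = 0.0309), and 3.98 with the offsets. The call was lost without vehicle library 1 or 3, where the value was 3.03 in both cases (edgeR adjusted p = 0.0722 and 0.0502). It was also lost without treated library 1, 2 or 3, at 3.68, 3.73 and 3.44 (edgeR adjusted p = 0.0776, 0.0690 and 0.0971). Without vehicle library 2 the vehicle group was at 0 and no fold is given. Small counts in this table may not be single reads. In each library genes with exactly 4 counts were 2.13 to 2.66 times as frequent as the mean of those with 3 and 5, and the cause was not tested. With counts divided by 4, an alternative chosen after seeing the data, NOTCH3 had too few counts to be tested.

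Before the GC and length offsets, NOTCH2 held a larger share of receptor transcript in every treated library than in any vehicle library. Shares were computed within each library from CPM per kilobase of exon, which removes the difference in transcript length but not the trend with GC content. NOTCH1 made up 50.4%, 55.4% and 45.9% of the summed NOTCH1, NOTCH2 and NOTCH3 level in vehicle and 31.9%, 37.7% and 34.5% after treatment. NOTCH2 made up 49.6%, 44.3% and 54.1% in vehicle and 67.7%, 61.8% and 64.9% after treatment. In mean, the NOTCH2 share was 49.3% ± 4.89 in vehicle and 64.8% ± 2.94 after treatment (SD, n = 3 each), with no overlap between the groups (two-sided exact permutation p = 0.1, the smallest possible). NOTCH3 stayed at 0.620% or less in every library. With the GC and length offsets taken out of the CPM, an alternative chosen after seeing the data, most of this shift was gone. The NOTCH2 share was then 56.8%, 55.1% and 56.7% in vehicle and 58.9%, 56.9% and 59.3% after treatment, a difference of 2.15 percentage points in place of 15.5 (two-sided exact permutation p = 0.1).

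**Figure D2:**
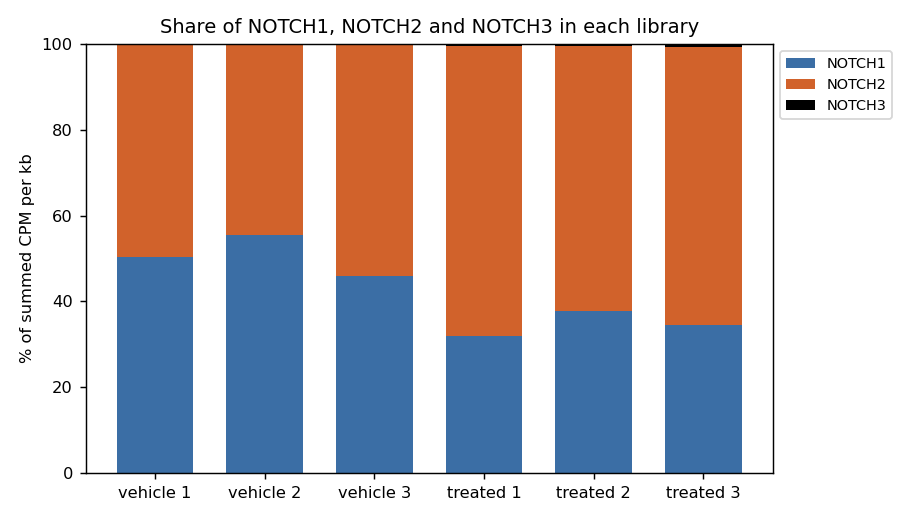
Percent of the summed CPM per kilobase (y axis, 0 to 100) held by NOTCH1, NOTCH2 and NOTCH3 in each of the 6 libraries (stacked bars, 1 bar per library), without the GC and length offsets. NOTCH2 holds 44.3% to 54.1% in the vehicle libraries and 61.8% to 67.7% in the treated libraries.

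RBPJ, the DNA-binding factor of the pathway, had 25.8, 24.3 and 25.8 CPM in vehicle and 33.3, 37.0 and 32.2 CPM after treatment. The groups did not overlap, and the log2 fold change was 0.43 (SE 0.120, edgeR adjusted p = 0.0161). The direction was not kept with the GC and length offsets, where RBPJ was at -0.58 (SE 0.186, edgeR adjusted p = 0.0297). RBPJ is GC-poor, at 38.0%, and in its GC bin the median was 0.79 and 51.5% of genes passed as higher. The call was also lost with library totals in place of composition factors (0.37, edgeR adjusted p = 0.0547) and without vehicle library 1 or treated library 2 (0.44 and 0.37, edgeR adjusted p = 0.0621 and 0.0729). No direction is therefore assigned to RBPJ. RBPJ (ENSG00000168214) lies on the plus strand of chromosome 4 at 26163455 to 26435131.

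MAML1, a Mastermind coactivator that bridges the Notch and RBPJ complex to histone acetyltransferases, had 27.6, 22.3 and 34.3 CPM in vehicle and 38.8, 31.3 and 32.9 CPM after treatment. The groups overlapped, with vehicle library 3 inside the treated range. Its log2 fold change was 0.29 with a 95% interval of -0.13 to 0.70 (edgeR adjusted p = 0.205), and 0.37 with the offsets. Without vehicle library 3 it was 0.45 and passed (edgeR adjusted p = 0.0391). MAML1 (ENSG00000161021) lies on the plus strand of chromosome 5 at 179732850 to 179777286.

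HES1, the repressor gene most widely used as a readout of Notch activity and one that also answers to other signals, was the member with the largest change among those with more than a few counts. It had 49.4, 36.3 and 57.4 CPM in the vehicle libraries and 4.59, 5.56 and 5.45 CPM in the treated libraries. The 3 treated libraries lay close together, far below the lowest vehicle library. The log2 fold change was -3.20 (SE 0.203, 95% interval -3.66 to -2.73, edgeR adjusted p = 4.12e-05), and the value ranked 240 from the lowest of 19170. With the offsets it was -3.11, and over all 16 alternatives it stayed between -3.36 and -3.05. HES1 has a GC content of 49.9%, in a GC bin whose median was -0.04. HES1 (ENSG00000114315) is a compact gene on the plus strand of chromosome 3 at 194136145 to 194138732.

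HES4, a HES family repressor that humans have and mice lack, had 55.7, 72.8 and 40.1 CPM in vehicle and 17.2, 25.7 and 25.3 CPM after treatment. The vehicle libraries differed among themselves, but the groups did not overlap. The log2 fold change was -1.31 (SE 0.246, edgeR adjusted p = 0.00299). With the offsets it was -0.62 (SE 0.0963, edgeR adjusted p = 9.99e-04), a smaller change in the same direction. HES4 is the most GC-rich member, at 73.9%, in the GC bin whose median was -0.82 and of which 56.1% passed as lower. HES4 (ENSG00000188290) lies on the minus strand of chromosome 1 at 998962 to 1000172.

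HEY1, a target of the related HEY family, was scarcely detected. Its counts were 34, 8 and 33 in vehicle and 20, 47 and 19 after treatment, or 0.105 to 0.563 CPM. The groups overlapped. The log2 fold change was 0.37 with a 95% interval of -1.07 to 1.82 (edgeR adjusted p = 0.639), and 0.30 with the offsets, so at this depth neither a rise nor a fall of HEY1 was detectable. The groups were fully separated for 7 of the 10 members, NOTCH3 with its few counts among them, against 67.0% of all tested genes.

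**Figure D3:**
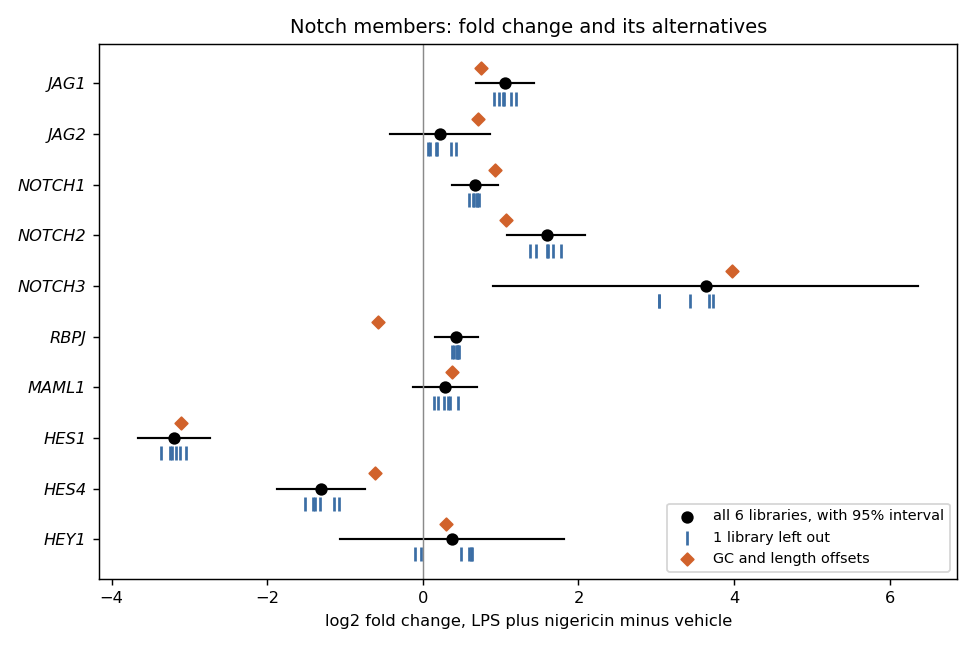
Log2 fold change of each member (x axis, treated minus vehicle) in the fit of all 6 libraries with its 95% interval (black), with 1 library left out (blue ticks) and with GC and length offsets (orange). HES1 stays between -3.36 and -3.05, while HES4 moves to -0.62 and RBPJ to -0.58 with the offsets (NOTCH3 without vehicle library 2 is not drawn, its vehicle counts then being all 0).

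Between genes, levels were compared per kilobase of exon. In vehicle the order was HES4 at 50.3 ± 14.6 CPM per kilobase, HES1 at 23.1 ± 5.14, JAG1 at 5.74 ± 1.10, MAML1 at 4.73 ± 1.01, RBPJ at 2.74 ± 0.0926, and NOTCH1 and NOTCH2 both at 2.04. JAG2 at 0.242, HEY1 at 0.0866 and NOTCH3 at 0.00372 CPM per kilobase followed. The mean ± SD ranges of JAG1 and MAML1 overlapped. Both were measured in the same libraries, and their difference within each library was not tested. NOTCH1 and NOTCH2 had equal means, and which of them was higher differed between the vehicle libraries. After treatment the order of levels was HES4 at 20.3 ± 4.29 CPM per kilobase, JAG1 at 11.9 ± 1.34, NOTCH2 at 6.11 ± 0.930, MAML1 at 5.78 ± 0.664, RBPJ at 3.69 ± 0.268, NOTCH1 at 3.24 ± 0.133 and HES1 at 2.52 ± 0.257. HES1 thus passed from second place to below both abundant receptors. Among all tested genes with a known length, the level of HES1 per kilobase stood at percentile 88.5 in vehicle and 55.4 after treatment, and that of NOTCH2 at 54.0 and 71.1.

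**Figure D4:**
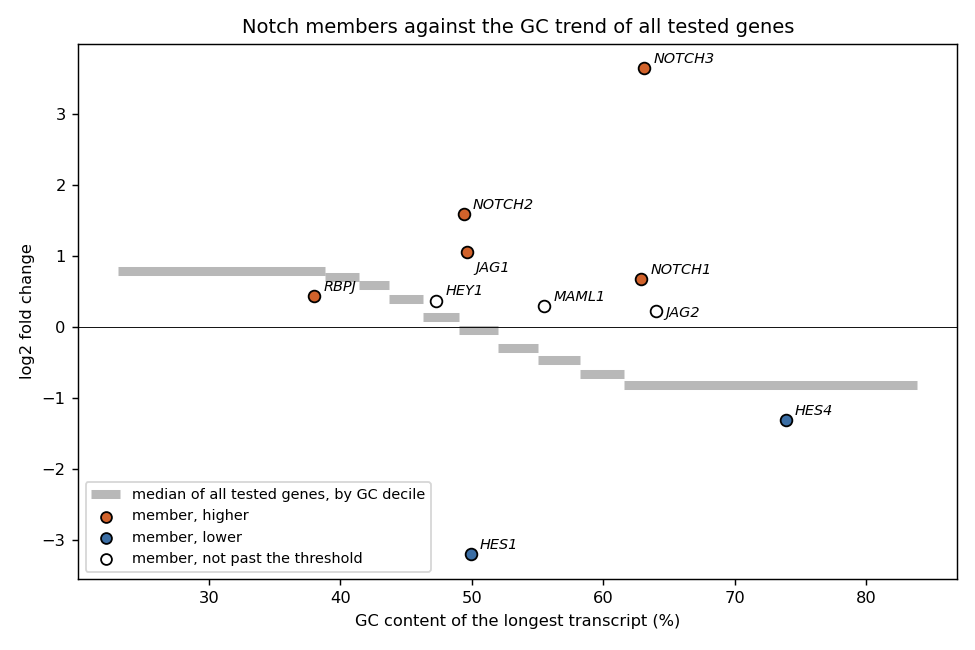
Log2 fold change of the members (y axis, points) against the GC content of their longest transcript (x axis, %), with the median of all tested genes in each of 10 GC bins (grey bars). RBPJ at 38.0% GC lies below its bar, HES4 at 73.9% lies at -1.31 under a bar at -0.82, and HES1 lies far below a bar at -0.04.

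A wider list of 76 Notch pathway genes, the members included, places these values among the other steps of the pathway. Of 70 that could be tested, 28 passed as higher, 13 as lower and 29 did not pass, with a median log2 fold change of 0.32. In all 58.6% passed, near the 55.3% of all tested genes, with 40.0% as higher against 28.9% and 18.6% as lower against 26.4%. With the GC and length offsets 36 of the 70 passed, 25 as higher and 11 as lower. This stands against 50.4% of all 18620 genes tested with the offsets, 4397 as higher and 4983 as lower. Of the 36, 26 also passed without the offsets in the same direction and 2, RBPJ and the ubiquitin ligase gene ITCH, in the opposite one. The counts by role given below are to be read against these shares of all tested genes.

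Among all 5 canonical ligands, 3 passed as higher and 0 as lower, and with the offsets 4 as higher and 0 as lower. Of all tested genes 28.9% passed as higher and 26.4% as lower without the offsets. DLL4, a Delta-like ligand known from sprouting vessels, had 1.15, 0.629 and 1.04 CPM in vehicle and 5.71, 6.87 and 4.95 CPM after treatment, and its log2 fold change came to 2.63 (SE 0.281) at an edgeR adjusted p of 2.62e-04. DLL1, another activating ligand, went from 0.492 ± 0.211 to 1.90 ± 0.251 CPM (log2 fold change 1.94). The groups did not overlap for either gene, and with the offsets the values were 3.11 and 2.38. DLL3, a ligand regarded as inhibitory, stayed low at 0.661 ± 0.170 and 0.434 ± 0.175 CPM (edgeR adjusted p = 0.258). JAG1 remained by far the most abundant ligand transcript in every library.

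The fourth receptor gene, NOTCH4, held 78, 59 and 0 counts in vehicle and 0, 0 and 17 after treatment. Its libraries disagreed within each group and it did not pass (log2 fold change -2.93, SE 1.66, edgeR adjusted p = 0.167). Without vehicle library 3 it did, at -3.53 (edgeR adjusted p = 0.0399). NOTCH4 shares 98 exon bases with GPSM3, which held 244 to 598 counts.

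Of 6 genes that act on ligand endocytosis, 2 passed as higher and 2 as lower, and with the offsets 2 as higher and 1 as lower. The ubiquitin ligases MIB1 and MIB2 went opposite ways. MIB1 had 5.77, 3.46 and 10.5 CPM in vehicle and 25.0, 17.6 and 21.7 CPM after treatment (log2 fold change 1.71), and MIB2 fell from 29.2 ± 5.69 to 16.1 ± 2.16 CPM (-0.86). These genes sit at opposite ends of the GC range, at 37.7% and 68.4%. With the offsets MIB1 was at 0.65 and MIB2 at -0.20, where MIB2 did not pass (edgeR adjusted p = 0.103).

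Of 6 glycosyltransferase genes that modify the receptor, 2 passed as higher and 1 as lower, and with the offsets 1 as higher and 0 as lower. EOGT, which adds O-linked N-acetylglucosamine to EGF repeats, rose from 12.8 ± 4.64 to 36.9 ± 3.28 CPM (log2 fold change 1.53, or 0.85 with the offsets). POFUT1, which adds the fucose that ligand binding depends on, went from 140 ± 10.4 to 174 ± 5.90 CPM (log2 fold change 0.32, edgeR adjusted p = 0.0327). The POFUT1 call was lost with the offsets (0.09), with library totals (0.26), without a count filter (0.30), with the replicate number as a block (0.32, edgeR adjusted p = 0.0531) and when vehicle library 1 or 1 treated library was left out (0.29 to 0.34).

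Of 9 genes for receptor cleavage, 3 passed as higher and 1 as lower, and with the offsets 4 as higher and 0 as lower. ADAM17, a sheddase of many surface proteins, had 3.45, 2.26 and 3.98 CPM in vehicle and 26.2, 15.0 and 16.4 CPM with LPS plus nigericin, at a log2 fold change of 2.57 with SE 0.294 (edgeR adjusted p = 3.50e-04). Its exons share 1323 bases with IAH1 on the opposite strand, and no source used here says whether counting took account of strand. The groups did not overlap. With the offsets the value for ADAM17 was 1.56, also past the threshold.

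Of 10 tested genes for receptor turnover, 6 passed as higher and 2 as lower, and with the offsets 3 as higher and 2 as lower. The ubiquitin ligase gene ITCH went from 0.50 to -0.48 with the offsets and passed in both directions. NUMB, an endocytic inhibitor of Notch, rose from 37.5 ± 3.02 to 99.5 ± 10.4 CPM (log2 fold change 1.41, or 0.77 with the offsets). FBXW7, the ubiquitin ligase subunit that marks the intracellular receptor for destruction, rose from 3.75 ± 0.456 to 10.8 ± 1.03 CPM (log2 fold change 1.53, or 0.98 with the offsets). DTX1, a Deltex gene often induced by Notch, was at 0 counts in all 6 libraries, which allows up to 0.0061 CPM over all libraries at 3 counts. This limit takes each count as 1 read, which small counts in this table may not be.

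Of 9 tested coactivator complex genes, 6 passed as higher, RBPJ among them, and 1 as lower. With the offsets 3 passed as higher and 1, RBPJ, as lower. The histone acetyltransferase genes EP300 and CREBBP, whose products serve many transcription factors besides Notch, had the smallest p-values of this list. EP300 had 21.1, 15.5 and 28.9 CPM in vehicle and 143, 83.6 and 97.6 CPM after treatment (log2 fold change 2.31, or 2.01 with the offsets). CREBBP rose from 32.1 ± 4.98 to 140 ± 27.7 CPM (2.12, or 2.01 with the offsets). No library of one group reached the range of the other for either gene.

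Of 14 corepressor genes, 3 passed as higher and 3 as lower, and with the offsets 4 as higher and 5 as lower. KDM5A, a histone demethylase that joins RBPJ in repression, rose from 14.6 ± 2.21 to 46.8 ± 5.87 CPM (log2 fold change 1.68, or 0.72 with the offsets). TLE4, a Groucho corepressor that HES proteins recruit, rose from 10.4 ± 1.40 to 23.8 ± 1.40 CPM (1.19, or 0.82 with the offsets).

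The HES, HEY and NRARP genes, of which some but not all are known as transcriptional targets of the pathway, gave 0 of 7 tested as higher. Of all tested genes 28.9% passed as higher and 26.4% as lower. HES4, HES6, HES7 and NRARP, at 63.3% to 73.9% GC, lie in the GC-richest bin, where 7.36% passed as higher and 56.1% as lower. HES1, HES4 and HES6 passed as lower and 4 did not pass. With the offsets 2, HES1 and HES4, passed as lower and 1, NRARP, as higher. HES6, an atypical member that antagonises HES1, had 10.3, 10.3 and 8.03 CPM in vehicle and 5.39, 5.49 and 4.69 CPM after treatment (log2 fold change -0.88, edgeR adjusted p = 0.00378), but it was at 0.03 with the offsets (edgeR adjusted p = 0.904) and has a GC content of 68.4%. HES7 was at 1.04 ± 0.111 and 0.454 ± 0.292 CPM (edgeR adjusted p = 0.0687). It passed as lower with DESeq2 (-1.21), limma-voom (-1.31), the replicate block (-1.38), counts divided by 4 (-1.13) and without treated library 3 (-1.78), while with the offsets it was at -0.41 (edgeR adjusted p = 0.485). HES2 was at 0.137 ± 0.0716 and 0.104 ± 0.0970 CPM. NRARP, a feedback inhibitor that is induced by Notch, had 2.20, 2.35 and 2.37 CPM in vehicle and 2.58, 4.24 and 2.92 CPM after treatment. Its groups did not overlap and it did not pass (log2 fold change 0.49, SE 0.238, edgeR adjusted p = 0.112), while with the offsets it was at 1.34 (edgeR adjusted p = 0.00152). HES3, HES5 and HEY2 held at most 10 counts in any library, and HEYL was at 0 counts in all of them, with the same limit as DTX1. The difference between the genes of this list and the upstream genes was not itself tested.

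**Figure D5:**
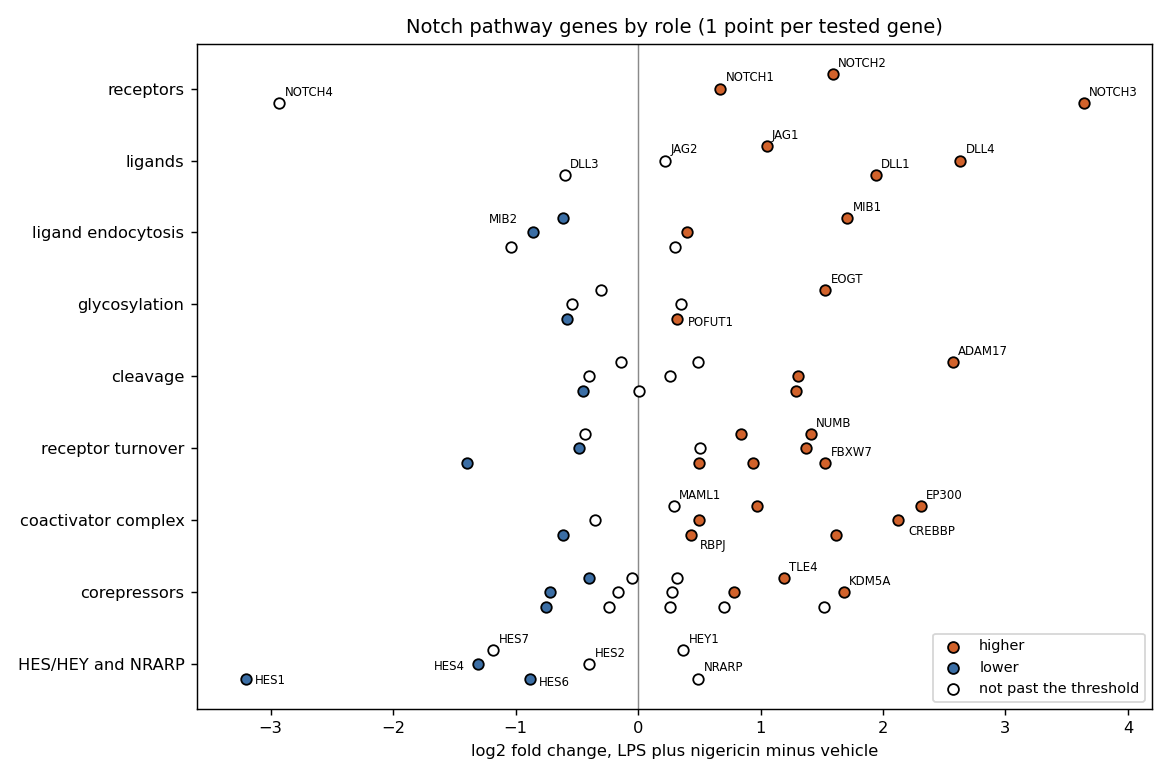
Log2 fold change (x axis, treated minus vehicle) of each tested Notch pathway gene, grouped by role (y axis), with 1 point per gene coloured by whether it passed the threshold as higher or lower. Receptors and ligands past the threshold lie right of 0, and the HES genes past it lie left, HES1 at -3.20.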

How the data were processed

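RNA from 6 T24 samples, 3 vehicle and 3 LPS plus nigericin as titled in the labels, was sequenced, and the authors deposited 1 table of raw counts per Ensembl gene, per the file headers. The build was hg38, per the submitters' processing notes. For the aligner, counter, annotation release and strand setting, a name is not given in the sources here. Columns were matched to samples by library name. Of 37871 identifiers 37840 had a symbol. Totals were 66180407 to 89152224 counts.

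Genes passing edgeR's filterByExpr (19170) were normalized with TMM factors and tested with edgeR 4.0.16 in R 4.3.3, by a robust quasi-likelihood fit with the group as the only term and Benjamini-Hochberg adjustment. SE was taken as the unsigned log2 fold change over root F, and intervals use the fit's degrees of freedom. Lengths, GC content and positions came from GENCODE 29 on GRCh38, and per-kilobase levels use the union of exons. Shares were compared with an exact permutation test. Promoter motifs were sought on both strands.

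Members and lists were chosen with earlier results of these data known. The naming rule took all members, the 2 other genes with the smallest p among those past the threshold in each role, the remaining receptor, ligand and HES/HEY genes, and 4 genes of a bHLH list. Genes cited as markers, as copies or neighbours of a member, as E proteins of the bHLH list, or as the 2 with opposite directions were named for those reasons. One gene that the rule names is not reported here. Alternatives were RLE factors, library totals, DESeq2 1.42.0, limma-voom (limma 3.58.1), no filter, 1 CPM in 3 libraries, the replicate block, loess offsets (span 0.3) for GC and length, no mitochondrial genes, and each library left out. Scripts were tested on simulated data. Python 3.11.15 drew the figures.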

Additional observations from a re-analysis of the deposited data

How the results depend on the processing

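Each count of genes past the threshold stayed within 1.5 times its value over 16 alternatives, at 5 to 8 of the 10 members, 32 to 47 of the wider pathway list and 8341 to 11438 of all tested genes. HES1, HES4, JAG1, NOTCH1 and NOTCH2 kept their direction and their side of the threshold in all 16. RBPJ reversed with the GC and length offsets (-0.58), and HES6 went from -0.88 to 0.03; the cause was not tested. The share differences between receptors and the JAG1 to JAG2 ratio kept their direction with the longest transcript as length and without each library. With the GC and length offsets, added after seeing the data, they shrank to -2.64 percentage points for NOTCH1, 2.15 for NOTCH2 and 0.0664 on the log2 scale for the ratio. Same-numbered libraries had correlations of deviations of -0.0231, 0.0956 and -0.0236, and differently numbered ones of -0.1007 to 0.1224. With 3 libraries per group these values cannot decide whether the numbers pair the libraries, and the labels do not say. With the replicate number as a block 10408 genes, 7 members and 42 pathway genes passed. With counts divided by 4, an alternative chosen after seeing the data, 6 of 8 tested members passed, NOTCH3 and HEY1 having too few counts. At 1 CPM in 3 libraries the same 2 members were not tested. Depth limits NOTCH3, HEY1, NOTCH4 and the other HES and HEY genes under 1 CPM.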

Other observations

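HES proteins belong to the basic helix-loop-helix (bHLH) class. Other bHLH repressors and the ID proteins, which bind E proteins and keep them off DNA, were examined beside them. The list also held the E protein genes TCF3, TCF4 and TCF12. Of 8 tested genes of this list, 3 passed as higher and 4 as lower, with and without the GC and length offsets. Of all tested genes 28.9% passed as higher and 26.4% as lower without the offsets. With them 4397 of 18620 genes passed as higher and 4983 as lower. Without the offsets the 3 higher were ID2 and the E protein genes TCF4 and TCF12, at log2 fold changes of 1.43 and 1.54. The 4 lower were all repressor or ID genes. ID1, a target of BMP signalling in many cells, had 190, 150 and 175 CPM in vehicle and 13.6, 19.0 and 16.5 CPM after treatment. Its log2 fold change of -3.39 with SE 0.168 (edgeR adjusted p = 2.17e-05) was similar in size to that of HES1. ID3 fell from 77.3 ± 12.9 to 20.7 ± 3.05 CPM (-1.90). ID2 went the other way, with 0.723, 0.433 and 0.680 CPM in vehicle and 10.7, 7.95 and 7.24 CPM in the treated libraries, and its log2 fold change was 3.81 with SE 0.282. The groups did not overlap for any of these 3 genes. BHLHE40, a bHLH repressor of the circadian and hypoxia responses, fell from 69.2 ± 16.1 to 18.5 ± 2.13 CPM (-1.90). With the GC and length offsets the values were -2.81 for ID1, -1.35 for ID3, 4.12 for ID2 and -1.83 for BHLHE40, all past the threshold.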
